A study of Homo sapiens with 10 samples.

Results

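The 1000 widest H3K4me3 peaks of HCT116 cells were described by the genes they held and by the RNA polymerase and H3K9me3 peaks that overlapped them. They were the 1000 widest of the 17181 H3K4me3 peaks on chromosomes 1 to 22 and X, chosen by their measured width (end minus start), and the 16181 remaining peaks, the others below, served for comparison. The others include the next 1000 in width (1486 to 1710 bp), which are also given apart. HCT116 is an established human colorectal carcinoma line, and all cells were labelled wild type, with no treatment given in the labels. CUT&Tag uses an antibody to bring a tagging transposase to a chromatin protein, and the antibodies were against H3K4me3 (1 sample used here), H3K9me3, POLR1A and POLR2A (3 samples each), with 100000 to 200000 cells per sample. The study placed RNA polymerase I and RNA polymerase II on the genome relative to their chromatin. Each target had 1 peak list without values per replicate, so no difference below could be tested against the spread between samples, and the intervals given cover counting error only. HCT116 was the 1 line examined. Values of the H3K4me3 list itself are descriptions, because that list chose the set.

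H3K4me3 is trimethylation of lysine 4 of histone H3 and is laid down around the start sites of genes transcribed by RNA polymerase II. Most promoters carry it on a few nucleosomes, while broad domains of the mark are known from genes of cell identity and from highly transcribed genes. POLR2A is the largest subunit of RNA polymerase II, which makes messenger RNA. POLR1A is the largest subunit of RNA polymerase I, whose best known template is the ribosomal RNA gene repeat in the nucleolus. H3K9me3 is the mark of constitutive heterochromatin and is usually sparse where H3K4me3 is strong.

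The starts of a few genes give a view of the DNA under these peaks. The 200 bases before each start are shown 5′ to 3′ on the gene's strand, from RefSeq (GRCh38.p14), with each CG dinucleotide in capitals. SPRY4 (chr5:142324248-142324447, minus strand), GATA2 (chr3:128488531-128488730, minus strand) and HNRNPUL1 (chr19:41262357-41262556, plus strand) are shown because they lie at the widest peaks with an annotated start, although part of the HNRNPUL1 stretch lies before the edge of its peak. PTPA (chr9:129111215-129111414, plus strand) and TOB1 (chr17:50867979-50868178, minus strand) had the most and the fewest CG dinucleotides in this stretch. GUK1 (chr1:228139884-228140083, plus strand) is shown for the highest POLR1A fold enrichment at a peak with a protein-coding gene start.
SPRY4: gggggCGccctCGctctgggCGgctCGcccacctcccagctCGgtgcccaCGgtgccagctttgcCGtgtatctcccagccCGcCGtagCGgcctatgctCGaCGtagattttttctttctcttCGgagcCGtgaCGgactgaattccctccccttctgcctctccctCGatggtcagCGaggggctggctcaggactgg
GATA2: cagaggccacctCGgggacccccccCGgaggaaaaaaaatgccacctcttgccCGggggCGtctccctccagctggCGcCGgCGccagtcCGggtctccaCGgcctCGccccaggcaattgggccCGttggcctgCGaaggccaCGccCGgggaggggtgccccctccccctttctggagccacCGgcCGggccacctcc
HNRNPUL1: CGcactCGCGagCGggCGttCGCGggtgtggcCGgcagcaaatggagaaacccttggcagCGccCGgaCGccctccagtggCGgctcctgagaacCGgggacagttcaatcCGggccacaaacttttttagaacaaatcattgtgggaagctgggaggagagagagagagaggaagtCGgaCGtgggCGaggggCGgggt
PTPA: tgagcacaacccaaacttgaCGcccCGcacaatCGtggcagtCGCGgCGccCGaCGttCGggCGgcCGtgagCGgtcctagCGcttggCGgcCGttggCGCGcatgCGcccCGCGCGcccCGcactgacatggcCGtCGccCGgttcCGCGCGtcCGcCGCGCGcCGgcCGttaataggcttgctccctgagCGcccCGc
TOB1: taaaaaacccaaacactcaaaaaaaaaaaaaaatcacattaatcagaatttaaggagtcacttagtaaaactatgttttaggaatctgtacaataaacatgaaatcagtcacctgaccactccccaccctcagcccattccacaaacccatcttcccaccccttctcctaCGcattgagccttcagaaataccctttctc
GUK1: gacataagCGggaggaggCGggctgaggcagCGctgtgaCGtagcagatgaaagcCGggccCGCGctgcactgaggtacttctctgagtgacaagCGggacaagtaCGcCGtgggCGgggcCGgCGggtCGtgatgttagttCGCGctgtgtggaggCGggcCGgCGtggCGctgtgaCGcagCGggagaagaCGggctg
The stretch held 36 CG dinucleotides at PTPA and 1 at TOB1, with 17 at SPRY4, 16 at GATA2, 18 at HNRNPUL1 and 23 at GUK1. PTPA, an activator of protein phosphatase 2A, ranked 144 in width and TOB1, an antiproliferative regulator of mRNA decay, ranked 488, so both a CG-rich and a CG-poor start lay under a wide peak.

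Of 1558 microRNA hairpins in the RefSeq table, 20 (1.28%) lay whole inside the 1000 widest peaks and 79 (5.07%) lay inside any H3K4me3 peak. Per megabase of peak this was 10.0 hairpins in the widest and 4.54 in the others, from 20 and 59 hairpins. Narrow peaks have less room for a whole hairpin, and the rate per megabase does not correct for that. The pair MIR200C and MIR141, microRNAs known to keep cells epithelial by acting on ZEB1 and ZEB2, lay in the peak of rank 21 (chr12:6961592-6964331, 2740 bp). MIR9-1, known from neural development, lay in the peak of rank 368 (chr1:156419851-156421848, 1998 bp). Their mature sequences follow with the seed, bases 2 to 8, in capitals, because the 3p arms of the first peak have related seeds.
hsa-miR-200c-3p: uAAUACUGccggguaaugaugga
hsa-miR-141-3p: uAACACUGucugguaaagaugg
hsa-miR-200c-5p: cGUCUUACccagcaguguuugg
hsa-miR-9-5p: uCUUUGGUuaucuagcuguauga
hsa-miR-9-3p: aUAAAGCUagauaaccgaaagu
The seeds of miR-200c-3p and miR-141-3p differ at 1 base. That peak held 2 POLR2A peaks, the higher at a fold enrichment of 10.99, and no POLR1A peak. Of the others, MIR3652 lay in the HSP90B1 peak, MIR4258 in the SHC1 peak, MIR1292 in the NOP56 peak and MIR632 in the ZNF207 peak. Transcription of these hairpins was not measured.

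The widths ran from 1710 to 3630 bp with a median of 1917 bp, against 762 bp in the remaining peaks. The set covered 1.99 Mb. At the limit, the peaks at NDUFA7 and RPS28 (1712 bp), PJA2 (1711 bp), DDX28 and DUS2 (1710 bp), within L3MBTL1 (1710 bp) and at DNAH12 and PDE12 (1710 bp) were the last inside. TRIM32 (1710 bp), USP1, CFAP58 and ITPRIP, TPT1 and ZBTB32 (1709 bp each) were the first outside, so the limit separates no natural class. The widest peaks were not the highest. The authors' fold enrichment at the summit, a linear ratio, had a median of 8.74 (range 3.48 to 15.9) in the 1000 widest, 10.4 in the next 1000 and 9.08 in all others, where it reached 35.0. In 10 groups of equal size by width, the median was 4.67 in the narrowest, 12.5 in the 7th (950 to 1102 bp) and 9.38 in the widest. Spearman's rho between width and fold enrichment was 0.50 over all 17181 peaks and -0.43 within the 1000 widest, given as a description since width chose the set and both values come from the same reads.

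**Figure D1:**
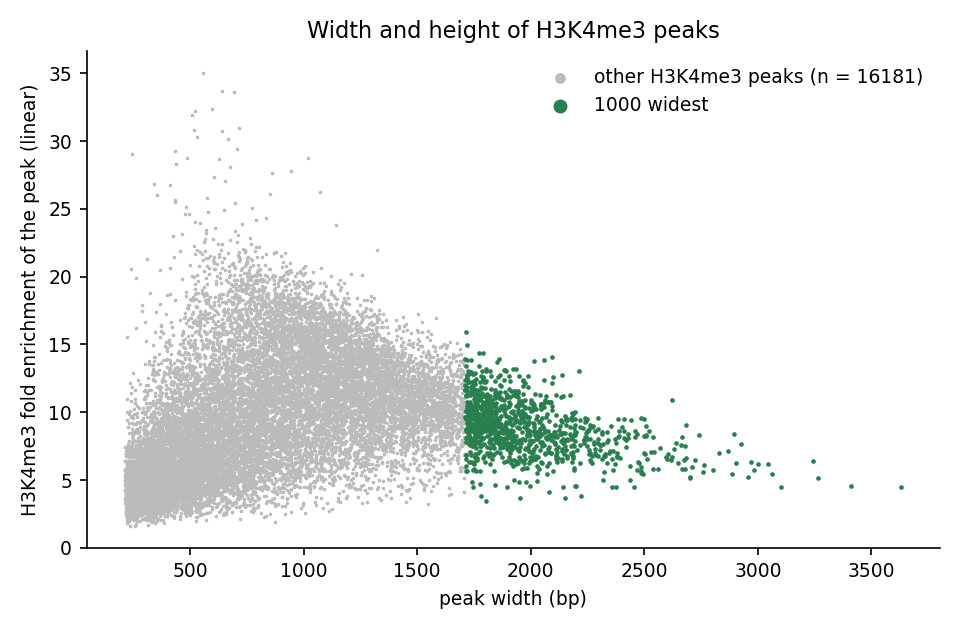
Width of each H3K4me3 peak (x axis, bp) against the authors' fold enrichment at its summit (y axis, linear ratio), with the 1000 widest peaks marked apart from the others. Fold enrichment is highest at intermediate widths, and the 15 widest peaks lie between 4.51 and 8.39.

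The widest peak of all (chr17:7841545-7845174, 3630 bp) lay inside KDM6B, which encodes an H3K27 demethylase, and held no annotated gene start. Its H3K4me3 fold enrichment was 4.52, and it held 3 POLR2A peaks (highest 6.09) and 1 POLR1A peak (4.74). SPRY4, an inhibitor of RAS and MAPK signalling, followed at 3412 bp (chr5:142323285-142326696), with POLR2A at 10.4 and no POLR1A. The third (chr3:128487194-128490459, 3266 bp) held the end of GATA2-AS1 and lay within GATA2, a transcription factor of blood lineages, whose start in the RefSeq promoter table lies inside it while the gene's outer end does not, with POLR2A at 4.96. HNRNPUL1, an RNA-binding protein, had 3244 bp with POLR2A at 19.1 and POLR1A at 9.32. The 15 widest thus differed in polymerase signal, and all 15 overlapped POLR2A.

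ADIRF (3102 bp), a regulator of fat cell differentiation, had POLR2A at 5.91, and GRB7 (3061 bp), an adaptor of receptor tyrosine kinases, had 4.94. PHF12 (3043 bp), a component of a SIN3 corepressor complex, had POLR2A at 17.7, POLR1A at 7.79 and also H3K9me3 at 4.47. The peak of CTC1 and PFAS, for telomere maintenance and purine synthesis, had 3000 bp and POLR2A at 4.70. KMT2E (2982 bp), a relative of the H3K4 methyltransferases, held 2 POLR2A peaks (highest 17.2) and 2 POLR1A peaks (highest 5.67). POLR1G, itself a subunit of RNA polymerase I, shared a 2969 bp peak with PPP1R13L, with POLR2A at 9.70 and no POLR1A. Low and high polymerase values therefore stood side by side among neighbours in width.

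DUSP4 (2957 bp, POLR2A 12.02), a phosphatase of MAP kinases, FRAS1 (2927 bp, POLR2A 7.24), an extracellular matrix protein, and RHOC (2902 bp, POLR2A 6.36), a small GTPase, had POLR2A without POLR1A. The peak of BET1L and RIC8A (2894 bp) had POLR2A at 11.6 and POLR1A at 6.57. The peak of CENPX and LRRC45 (2887 bp), for a centromere and a centrosome protein, had POLR2A at 23.2 and POLR1A at 5.71.

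The 1000 widest peaks were gene starts far more often than the other peaks. An end of a protein-coding gene lay in 807 of them (80.7%, 95% interval 78.1 to 83.1; background over all 17181 peaks 41.5%), in 76.8% of the next 1000 and in 39.0% of the others. The difference from the others was 41.7 percentage points (39.0 to 44.1) and had the same sign on 23 of 23 chromosomes. A wider peak holds more bases and so more gene ends by construction. Of the 1139 gene ends inside, 939 were 5′ ends, 42 were 3′ ends and 158 belonged to genes whose strand was not known, so 95.7% of those with a known strand were starts. The number of genes per peak was 0 in 193, 1 in 505, 2 in 284, 3 in 17 and 4 in 1.

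Ends of 2 or more protein-coding genes lay in 302 of the widest peaks (30.2%; background 6.26%), in 20.0% of the next 1000 and in 4.78% of the others. Annotated starts on both strands, as at a bidirectional promoter, lay in 39.2% (background 10.2%), 29.5% and 8.40% in the same order. The most crowded peak (chr12:89524522-89526325, 1804 bp) held POC1B, GALNT4 and the read-through genes POC1B-DUSP6 and POC1B-GALNT4, which overlap each other. Peaks with 3 genes included BAD, GPR137 and PLCB3 (chr11:64268902-64271525), for a cell death protein, a receptor-like protein and a phospholipase, and ERAP1, LNPEP and LOC124901030 (chr5:96934638-96937142), the first pair encoding aminopeptidases. The peaks of KIAA0753, LOC122526780 and TXNDC17 and of ALG3, EEF1AKMT4 and EEF1AKMT4-ECE2 also held 3 genes. An end of a lncRNA gene lay in 25.7% (background 12.1%) of the widest and in 11.2% of the others.

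**Figure D2:**
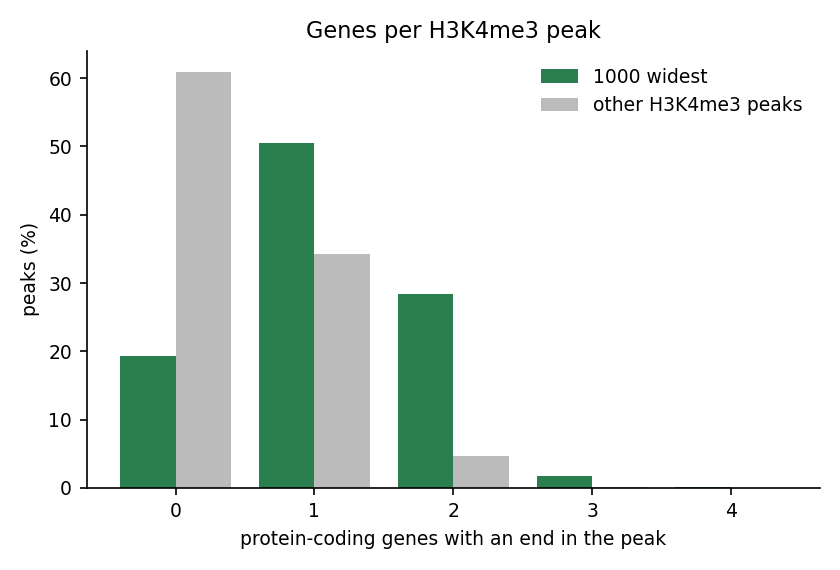
Share of peaks (y axis, %) by the number of protein-coding genes with an end inside (x axis), for the 1000 widest and all other H3K4me3 peaks. Peaks with 2 or more genes make up 30.2% of the widest and 4.78% of the others.

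Few of the widest peaks had a close neighbour. Another H3K4me3 peak lay within 2 kb of 7.6% of them (background 30.3%), against 9.0% of the next 1000 and 31.7% of the others. When peaks within 1 kb were joined before ranking, the limit rose to 2050 bp and the 1000 widest joined stretches contained 348 of the 1000 peaks described here. The share of a chromosome's H3K4me3 peaks in the set ran from 1.27% on chromosome 21 to 7.51% on chromosome 17, which held 79, with 116 on chromosome 1 and 95 on chromosome 19.

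The 193 peaks without a protein-coding gene end split into 60 with a lncRNA gene end (6.0%; background 5.12%), 107 inside a protein-coding gene (10.7%; background 36.5%) and 26 elsewhere (2.6%; background 16.9%). The 26 elsewhere lay outside coding genes and held no lncRNA gene end, while other gene kinds were not part of the split. An annotated start of any gene kind lay in 76 of the 193, and a coding gene end lay within 1 kb of 68. After the peaks in KDM6B and at GATA2-AS1, the widest of these lay inside MYC, the growth-promoting transcription factor (chr8:127736053-127738855, 2803 bp), with POLR2A at 4.26. It was followed by the MIR200C host gene and by a stretch outside coding genes (chr2:240565499-240568198, 2700 bp) with 2 POLR2A and 2 POLR1A peaks. The lncRNA LOC101929014 (2681 bp), which carried all 3 other targets, came after these. The next lay inside CDK6, a kinase of G1 phase (2660 bp, POLR2A 6.07), and inside BAZ2A (2604 bp), a subunit of the complex that silences ribosomal RNA genes, which had POLR2A at 9.94, POLR1A at 6.74 and H3K9me3 at 5.18. The reference gives the outer ends of each gene and, for some genes, more than 1 promoter start. The peaks inside CDK6 and BAZ2A each held 1 such start of a coding gene, while those inside KDM6B and MYC held none. Promoter starts are not given for every gene, and are given for none on chromosome 8, where MYC lies. Starts that are not listed could not be recognised.

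Genes with an end in the set numbered 1126 of 19821 protein-coding genes (5.68%), or 13.8% of the 8170 genes at any H3K4me3 peak, which were themselves 41.2% of the coding genes. The lists below are read against that 13.8%, and no set test was made. A listed gene can share its peak with other coding genes, and the widths and fold enrichments given are those of the whole peak. Of the 1126 genes, 90.1% lay at peaks with POLR2A and 39.1% at peaks with POLR1A. Heat shock and chaperone genes had 8 of 19 (42.1%): HSPA8, HSP90AB1, HSP90B1, the divergent pair HSPD1 and HSPE1 in 1 peak, HSPA4, HSP90AA1 and DNAJA1. All 8 lay at peaks with POLR2A, near the share of all genes in the set, and all 8 at peaks with POLR1A. HSP90B1, the chaperone of the endoplasmic reticulum, had a width of 2215 bp, POLR2A at 21.6 and POLR1A at 6.85. HSPA8, the constitutive HSC70, had 2360 bp, POLR2A at 15.6 and POLR1A at 5.46.

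Cytosolic ribosomal protein genes had 25 of 74 (33.8%), in 25 separate peaks, some of them shared with other coding genes. All 25 overlapped POLR2A, as did 90.1% of all genes in the set, while 8 overlapped POLR1A. Among them were RPL28 (2681 bp), RPS21 (2311 bp) and RPL13 (2258 bp). Their POLR2A fold enrichment was 8.60, 4.33 and 6.78 in that order, and RPL28 was the 1 of these with POLR1A. Mitochondrial ribosomal protein genes had 7 of 70 (10.0%), below the background, led by MRPL12 (2633 bp) and MRPL18 (2427 bp). Spliceosome and HNRNP genes had 11 of 34 (32.4%), 7 of them with POLR1A. HNRNPF (2486 bp, POLR2A 8.58), an RNA-binding protein, led by width. DDX5 (2457 bp, POLR2A 16.9, POLR1A 8.16), a helicase whose peak is shared with CEP95, followed, ahead of U2AF2 and HNRNPD.

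Translation factors had 6 of 24 (25%), led by PABPC1 (2296 bp), the poly(A)-binding protein, with POLR2A at 16.2 and POLR1A at 5.93. Glycolysis genes had 4 of 11 (36.4%), all with POLR2A and none with POLR1A. These were ALDOA (2829 bp, POLR2A 11.9), GAPDH (2514 bp, 6.66), ENO1 (2187 bp, 11.6) and PGAM1 (1782 bp, 12.2). Replication-dependent histone genes had 7 of 36 (19.4%) in 3 peaks, as neighbouring genes shared a peak. Chromatin regulators had 4 of 37 (10.8%), led by HDAC3 (2157 bp), a histone deacetylase whose peak is shared with RELL2 and overlaps no polymerase peak. CBX3 (2045 bp, POLR2A 18.7, POLR1A 7.25), a heterochromatin protein whose peak is shared with HNRNPA2B1, came next. Cell cycle genes had 1 of 20 (5.00%), AURKA, and DNA replication genes had 4 of 35 (11.4%), led by MCM7 and CDC45.

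Signalling genes were also present. Immediate early genes had 6 of 21 (28.6%): NR4A2 (2701 bp, POLR2A 8.65), a nuclear receptor, IER2 (2561 bp, 6.97, peak shared with STX10), JUN, FOSL1, BTG1 and MCL1. The EGFR, RAS, MAPK and PI3K list had 6 of 21 (28.6%). After SPRY4 and DUSP4 came SHC1 (2186 bp, 12.7), an adaptor whose peak is shared with CKS1B, and ERBB3 (2018 bp, 6.46), a receptor. Tumour suppressors had 5 of 31 (16.1%), led by BRCA1 (2597 bp, POLR2A 9.16, POLR1A 7.05), a DNA repair protein whose peak is shared with NBR1, and CIC (2530 bp). Wnt genes had 2 of 15 (13.3%), GSK3B and PORCN, and no gene of the TGF-beta list was among them, of 10 with H3K4me3.

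Markers were checked against the labelled cell line. Epithelial junction and keratin genes had 4 of 16 (25%), among them ESRP1 (2439 bp), the epithelial splicing factor, LSR (2197 bp), a protein of tricellular junctions, and JUP. The intestinal transcription factors CDX2 (1806 bp, POLR2A 6.36) and GATA6 (1806 bp, POLR2A 8.09) were in the set. They were 2 of the 30 listed intestinal genes (6.67%, against 5.68% of all coding genes), of which 7 lay at any H3K4me3 peak. The 500 widest peaks and the 1000 widest joined stretches held 0 of these genes. None of 18 leukocyte, 17 fibroblast, 19 neuronal and 16 liver genes had an end in the set, and 1, 2, 1 and 1 of them lay at any H3K4me3 peak. The joined stretches held 1 neuronal gene. No member of the olfactory receptor (389), clustered protocadherin (53) and SOX (19) families was in the set. Of these families 1, 0 and 4 genes lay at any H3K4me3 peak, so their absence says little about width. SP2 represented the KLF and SP family (1 of 8 with H3K4me3) and FOXM1 the FOX family (1 of 6). HOX genes had 2 of 11 (18.2%), HOXB7 and HOXB9. Among 273 zinc finger (ZNF) genes with H3K4me3, 20 (7.33%) were in the set, led by ZNF646 and ZNF668, which share a peak of 2506 bp. Among lncRNA genes 272 (1.52%) had an end in the set, and of those listed by name it held SNHG1, SNHG29 and SNHG16, hosts of small nucleolar RNAs. Genes of polymerase I and III had 5 of 32 (15.6%), led by POLR1G and POLR1D, and genes of polymerase II had 5 of 32 (15.6%), led by ELL and POLR2I.

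**Figure D3:**
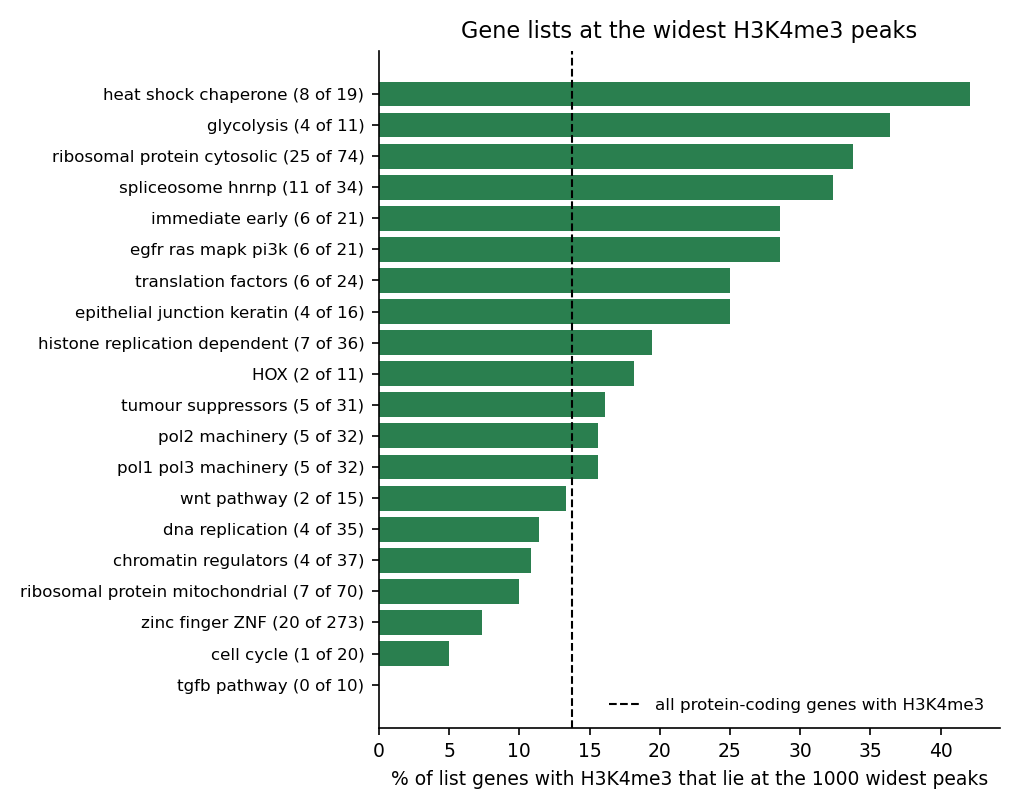
Share of each list's genes, for the lists reported with 10 or more genes at H3K4me3 peaks, with an end in the 1000 widest H3K4me3 peaks, out of the list genes at any H3K4me3 peak (x axis, %), with both counts beside the list name and the 13.8% of all such genes as a dashed line. Heat shock genes are at 42.1% and ZNF genes at 7.33%.

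RNA polymerase II was present at most of the widest peaks. A wider peak overlaps more by construction, so windows of fixed length are given beside the overlap. A POLR2A peak overlapped 874 of the 1000 (87.4%, 85.2 to 89.4; background 55.7%), 83.3% of the next 1000 and 53.7% of the others. The difference from the others was 33.7 points (31.4 to 35.8) and had the same sign on 23 of 23 chromosomes. In a window of fixed length, 500 bp to each side of the H3K4me3 summit, the shares were 69.9% (background 53.9%), 69.4% and 52.9%. Within 500 bp of the 5′ ends of genes in the peaks, POLR2A lay at 85.7% of 939 starts in the widest, at 85.6% of 815 in the next 1000 and at 77.0% of 5832 in the others. POLR2A peaks covered 21.5% of the bases in the widest, 22.9% in the next 1000 and 22.2% in the others. Measured per fixed window or per base, the widest peaks therefore lay close to the next 1000 in width.

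Where POLR2A was present, its highest fold enrichment had a median of 10.2 in the widest, 9.91 in the next 1000 and 8.03 in the others. The highest values among the 1000 were at OGA (26.0), the enzyme that removes O-GlcNAc, ATP5MC1 (24.9), a subunit of ATP synthase, and the shared peak of HAUS8 and MYO9B (24.9). They were followed by HNRNPD (24.6), a regulator of mRNA stability, and a stretch outside coding genes (chr2:64750077-64752187, 24.6). H2AX (24.5), the histone of the DNA damage response, LSR (24.4) and the shared peak of GART and SON (24.1) came next. All 8 of these peaks also held POLR1A. POLR2A lay at 89.7% of the 807 peaks with a coding gene end and at 77.7% of the 193 without. It lay at 88.9% of peaks with 1 gene, 90.8% with 2 and 94.4% of the 18 with 3 or more, whose interval of 72.7 to 99.9 includes the other values.

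A single POLR2A peak lay in 741 of the widest peaks, 2 lay in 126 and 3 in 7, so 133 (13.3%; background 2.66%) held more than 1, against 6.3% of the next 1000 and 2.0% of the others. A wider peak has more room for several, and per kb of peak the order was the reverse. There were 0.509 POLR2A peaks per kb in the widest, 0.564 in the next 1000 and 0.694 in the others. In those 133 the outermost POLR2A summits were a median of 828 bp apart (225 to 2591 bp). Starts on both strands were annotated in 34.6% of the 133 and in 40.9% of the 741. The widest 5 of the 7 with 3 included those in KDM6B, at the histone genes H2AC20, H2AC21 and H2BC21 (chr1:149886201-149888361) and at ERBB3. The rest of the 5 lay outside coding genes, on chromosome 11 (chr11:118928216-118930366) and chromosome 1 (chr1:15834369-15836416).

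**Figure D4:**
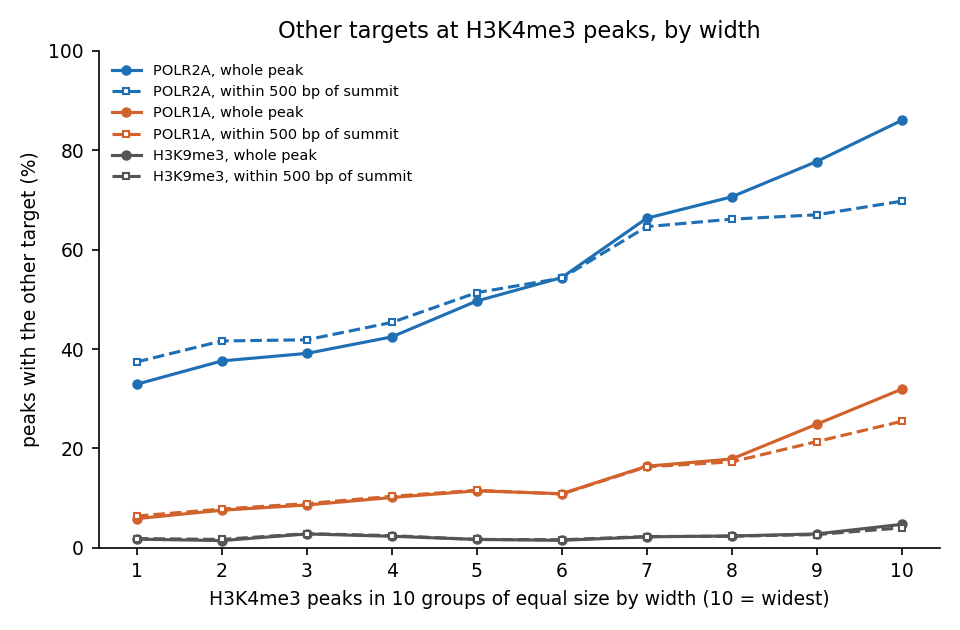
Share of H3K4me3 peaks (y axis, %) that overlap each other target, and share with that target within 500 bp of the H3K4me3 summit, in 10 groups of equal size by width (x axis, narrow to wide). POLR2A overlap goes from 32.9% to 86.0%, and its share in the fixed window from 37.4% to 69.7%.

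RNA polymerase I followed the same order at lower shares. A POLR1A peak overlapped 353 of the widest (35.3%, 32.3 to 38.4; background 14.6%), 28.9% of the next 1000 and 13.3% of the others, a difference from the others of 22.03 points (19.1 to 25.1), positive on 23 of 23 chromosomes. In the window at the H3K4me3 summit the shares were 27.4% (background 13.6%), 24.1% and 12.8%, and at gene starts 35.7%, 31.7% and 20.6%. POLR1A peaks covered 6.37% of the bases in the widest, 6.45% in the next 1000 and 5.22% in the others. The median fold enrichment where POLR1A was present was 6.14, 6.30 and 5.95, so the widest peaks did not carry the highest values. In 100-peak groups by width, the POLR1A share ran from 23% to 48% without a steady order.

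POLR1A came with POLR2A. Both overlapped 348 peaks (34.8%; background 13.8%), and 5 (0.5%; background 0.745%) had POLR1A alone. Among peaks with POLR2A, POLR1A lay at 39.8% of the widest (36.6 to 43.1), 34.6% of the next 1000 (31.3 to 37.9) and 23.3% of the others. Among the 126 widest peaks without POLR2A it lay at 3.97%. The highest POLR1A fold enrichments in the set were 14.2 at the lncRNA LOC124904633 inside MYO1F, 14.1 at GUK1, the guanylate kinase whose start is shown above, 12.4 at KPNB1, a nuclear import receptor, and 12.2 at ELL, an elongation factor of polymerase II. ORC6 with VPS35 (12.1), ZNF687 (12), a stretch outside coding genes (chr11:3421844-3423599, 11.5) and CIC (11.4), a transcriptional repressor, followed. All 8 also had POLR2A, between 18.1 and 23.4. POLR1A lay at 33.9% of peaks with 1 gene (29.7 to 38.2), 42.3% with 2 (36.4 to 48.2) and 10 of 18 with 3 or more.

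Neither polymerase overlapped 121 of the widest peaks (12.1%; background 43.6%), against 16.6% of the next 1000 and 45.5% of the others. Of the 121, 79 held a coding gene end, and their H3K4me3 fold enrichment had a median of 8.44, against 8.80 in the widest peaks with a polymerase. The widest were at PANO1 within SLC25A22 (chr11:795266-798029, 2764 bp), at HECTD3 and UROD (2684 bp), a ubiquitin ligase and an enzyme of haem synthesis, and at CNN2 (2570 bp), an actin-binding protein. PPP1R16A (2497 bp), MTCH1 (2334 bp), a stretch of chromosome X outside coding genes (chrX:28505444-28507762), IDH3G with SSR4 (2263 bp) and LAD1 (2242 bp) came next. A peak list gives no depth, so polymerase below the calling threshold would not be seen.

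The positions of the summits relative to the gene start were read in 259 of the widest peaks, those with the 5′ end of 1 protein-coding gene of known strand and no other coding or lncRNA gene end. The start was the outer 5′ end of the gene. Some of these peaks held several annotated starts, such as 3 each at HNRNPUL1 and RHOC, and positions relative to inner starts were not read. Where a peak held several summits of a polymerase, that with the highest fold enrichment was taken. These peaks reached a median of 659 bp upstream and 1260 bp downstream, and a median of 66.0% of their length lay on the transcribed side, against 255 bp, 742 bp and 74.0% in 3693 such peaks among the others. The H3K4me3 summit lay a median of 216 bp downstream of the start, and 38.6% of summits lay within 250 bp of it, against 45.9% in the next 1000 and 66.9% in the others. The POLR2A summit lay at -102 bp (236 peaks), and 63.6% were within 250 bp. In the next 1000 the POLR2A summit lay at -98 bp with 73.4% within 250 bp, and in the others at -70 bp with 86.0%. The POLR1A summit lay at a median of -188 bp (93 peaks), against -166 bp in the next 1000 and -104 bp in the others, with 44.1%, 76.4% and 76.6% within 250 bp. The medians of POLR2A and POLR1A come from different sets of peaks, and their summits were not compared within the same peaks. In wider peaks all 3 summits can lie further from the start, since the peak itself reaches further.

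**Figure D5:**
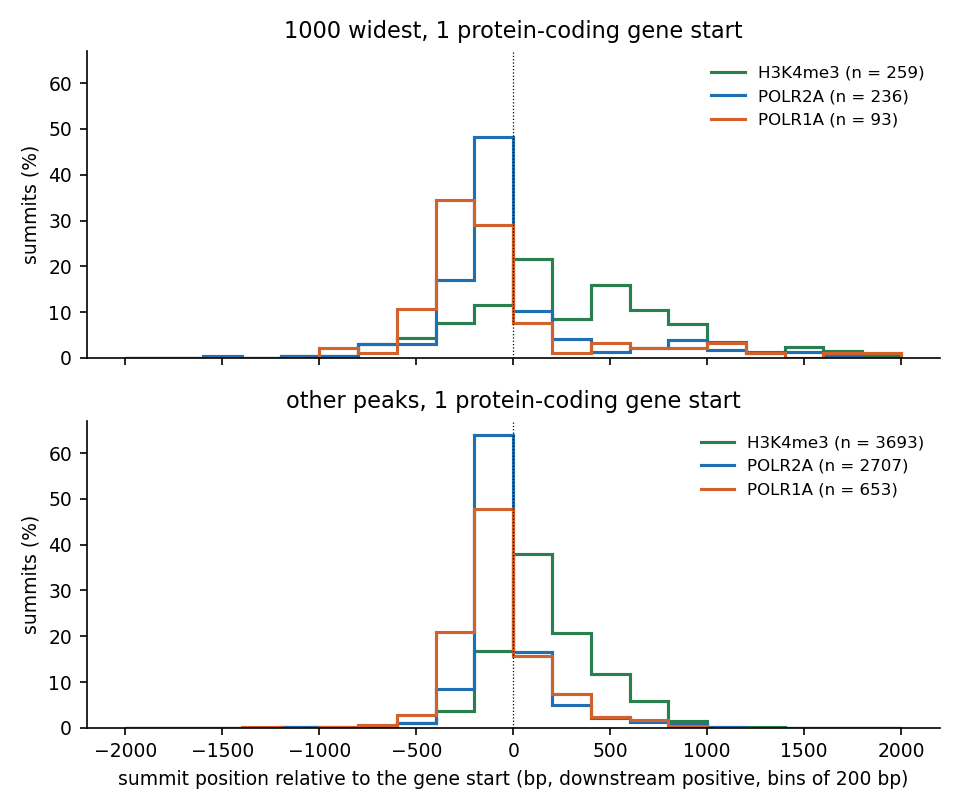
Position of H3K4me3, POLR2A and POLR1A summits relative to the gene start (x axis, bp, negative upstream) as a share of summits per 200 bp (y axis, %), for the widest and the other H3K4me3 peaks with the 5′ end of 1 coding gene. The gene start is that outer 5′ end, and some of these peaks hold further annotated starts. POLR2A and POLR1A summits lie mostly just upstream of the start, with medians of -102 bp (236 peaks) and -188 bp (93 peaks) in the widest peaks. H3K4me3 summits lie mostly downstream, 72.6% of them in the widest peaks.

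Promoter composition differed little with width. In the RefSeq window from 250 bases before to 50 after the start, genes at the widest peaks had a median of 28 CG dinucleotides (1014 promoters), those at the next 1000 had 27, those at the others 26 (6534) and those without H3K4me3 11 (8264). The observed over expected CG ratio was 0.871, 0.866, 0.844 and 0.510 in that order. GGGCGG, the GC box, was found on either strand in 74.0% of promoters at the widest, 72.8% at the others and 59.3% of all. CCAAT was found in 39.2%, 38.7% and 36.2%, TATAAA in 4.64%, 4.36% and 9.51%, and TGACGTCA, the cAMP response element, in 3.25%, 3.64% and 2.64%. GGAAGTG, an ETS-type motif, was found in 20.4% at the widest (17.97 to 23.03), 20.9% at the next 1000, 16.8% at the others (15.9 to 17.7) and 13.0% of all. No motif counted contains another, but GGGCGG and TGACGTCA each hold a CG dinucleotide. Within the set, genes at peaks with POLR2A had a median of 27 CG dinucleotides (913) and those without had 33 (101), and the medians with and without POLR1A were 26 and 29.

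H3K9me3 was rare at the widest peaks but not absent. An H3K9me3 peak overlapped 54 of them (5.4%, 4.08 to 6.99; background 2.36%), 4.2% of the next 1000 and 2.18% of the others. The difference from the others was 3.22 points (1.96 to 4.82) and was positive on 17 of 23 chromosomes, and that from the next 1000 was 1.20 points (-0.69 to 3.11). In the summit window the shares were 4.7% (background 2.35%), 3.7% and 2.20%. H3K9me3 peaks covered 1.18% of the bases in the widest, 1.16% in the next 1000 and 1.02% in the others. Per kb of peak there were 0.0271, 0.0264 and 0.0271 H3K9me3 peaks in that order, so the widest did not hold more for their length. The overlap depended on the threshold for H3K9me3. With a −log10 q of at least 5, which 3978 of 16414 H3K9me3 peaks pass, 0.8% of the widest overlapped, and the difference from the others was 0.077 points (-0.34 to 0.86). The fold enrichment of H3K9me3 in the 54 had a median of 4.86 (3.23 to 7.76). Where H3K9me3 was present, it was 4.62 in the next 1000 and 5.08 in the others, and it was 4.61 in the whole list.

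Most of the 54 peaks with H3K9me3 also held both polymerases. POLR2A overlapped 52 of them and POLR1A 43, so all 3 other targets met at 43 of the widest (4.3%; background 1.45%). H3K9me3 lay at 12.2% of the widest peaks with POLR1A (8.96 to 16.1) and at 1.70% of those without (0.852 to 3.02). The same contrast held at the other peaks, with 9.96% and 0.983%, so it was not particular to the widest. The highest H3K9me3 values were at ETF1 (7.76), the translation release factor, the lncRNA LOC105369250 (7.15), PLAUR (7.07), the urokinase receptor, and NASP (6.73), a histone chaperone. CD164 (6.59), a sialomucin, QPCTL with SNRPD2 (6.41), ANKHD1 (6.34) and the lncRNA DLEU1 (5.94) followed. All 8 had POLR2A, between 8.39 and 21.2, and of the 8 only DLEU1 lacked POLR1A.

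The comparison was also made among peaks of like H3K4me3 height. When all H3K4me3 peaks were divided into 10 groups of equal size by fold enrichment, the widest peaks of the 5th group (7.79 to 9.03; 253 peaks) overlapped POLR2A in 85.4% against 49.1% for the others, and POLR1A in 34.0% against 13.0%. In the summit window the same group gave 66.0% against 46.8% for POLR2A and 26.1% against 12.4% for POLR1A. Of the 10 groups, 7 held 20 or more of the widest peaks, and in all 7 the share with POLR2A and with POLR1A was higher in the widest, by overlap and in the summit window. For H3K9me3 this was so in 7 of 7 by overlap and in 6 of 7 in the summit window.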

How the data were processed

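The 4 deposited lists hold peaks from CUT&Tag in HCT116, 1 list per target. Per the file headers and values, the authors' columns are those of the narrowPeak format: a fold enrichment at the summit (a linear ratio), a −log10 q, a score and the summit's offset from the start. The lowest −log10 q in the H3K4me3 list was 1.00. For the aligner and the peak caller, settings, control and pooling of replicates remain not given in the sources used here. STAR, SAMtools 1.6 and deepTools 3.1.1 appear, with no role, among the submitters' processing notes, as does the build GRCh38. Depth cannot be read from peak lists.

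Peaks on chromosomes 1 to 22 and X were ranked by width, with ties broken by chromosome name and start. Outside these chromosomes 1 of 266 H3K4me3 peaks reached 1710 bp. Peaks overlapped if they shared at least 1 base. Genes came from a RefSeq table (GRCh38.p14), with strand taken from the promoter table, which covers 15813 coding genes and none on chromosome 8. Exon, intron and UTR could not be assigned. Shares carry exact Clopper-Pearson 95% intervals and differences Newcombe intervals. They treat neighbouring peaks as independent. No p-value was computed, because each target has 1 list. The scripts ran in Python 3.11.15 with pandas 2.3.3, NumPy 2.4.6, SciPy 1.17.1 and statsmodels 0.14.6 and were tested on simulated data.

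The set of peaks and the gene lists were chosen with earlier results of these data known, so the lists support nothing independently. Named peaks were the 15 widest, the 5 on each side of the limit, the 8 highest for each other target, the 8 widest without a polymerase and without a coding gene end, the 5 with most POLR2A peaks, the 5 with most genes, and up to 4 genes per list by width. Genes named beyond these were chosen after their values were seen, as was the GGAAGTG motif. Some genes and 1 gene list that the rule covers are not reported here.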

Additional observations from a re-analysis of the deposited data

How the results depend on the processing

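No share or difference changed sign under any alternative run, and 36 of 73 recomputed values moved beyond their interval or by more than 1.5 times. The cause was not tested except where the construction of the alternative shows it. The POLR2A share was 69.9% in the summit window, 77.4% with POLR2A peaks at a −log10 q of at least 5, 81.3% when H3K4me3 peaks within 1 kb were joined and 46.2% with lists cut to equal length. The POLR1A share was 32.1% in the 2000 widest, 27.4% in the summit window, 18.0% at the stricter q and 27.4% with joined peaks. The H3K9me3 share was 0.8% at the stricter q and 1.6% with equal lists. The gene end share was 87.5% with ends up to 1 kb away. The number of genes was 578 for the 500 widest and 2098 for the 2000 widest, as fewer or more peaks give by construction.

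The POLR2A difference of 33.7 points became 4.1 against the next 1000, 17.0 in the summit window, 36.4 at the stricter q, 31.3 with H3K4me3 peaks at a −log10 q of at least 5, 36.6 with 50% of the POLR2A peak inside, 18.7 with joined peaks and 27.6 with equal lists. The POLR1A difference of 22.03 points became 6.4 against the next 1000, 14.6 in the summit window, 12 at the stricter q and 11.2 with joined peaks. The H3K9me3 difference of 3.22 points became 1.2 against the next 1000, 0.077 at the stricter q, 1.44 with joined peaks and 0.81 with equal lists. Of the alternatives chosen after seeing the data, the POLR2A difference was 0.5 points in the summit window against the next 1000, 8.72 at gene starts and 0.085 at gene starts against the next 1000. The POLR1A difference was 3.3 (-0.53 to 7.12), 15.1 (11.9 to 18.4) and 4.02 (-0.42 to 8.42) in the same order. The H3K9me3 difference against the next 1000 was 1.0 (-0.78 to 2.80) in the summit window and 1.87 (-0.28 to 3.98) at gene starts. Each of these intervals against the next 1000 includes 0.

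Joined peaks held 3 heat shock genes and 12 cytosolic ribosomal protein genes in their 1000 widest, against 8 and 25. They held 0 intestinal genes against 2, 14 chromatin regulators against 4, 10 tumour suppressors against 5, and 1 neuronal and 1 SOX gene against 0 each. Counts for the gene lists moved in 49 of 155 recomputed values. No paired analysis was possible because each target has 1 list and no result comes from a test. No replicate could be left out for the same reason. The intervals cover counting error alone, and depth and the spread between samples are unknown.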
